A study of Mus musculus with 34 samples.

Results

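Liver genes whose products act in steroid metabolism, growth factor binding and transcription were followed across the livers of thermoneutral and heat-stressed mice: Igfbp2, Hsd11b1, Hsd3b5, Nr5a2 and Tef. They are 5 of the 1019 named genes on the array, which holds 1856 features in 1920 spots, and each was found by its symbol in the platform annotation and read by 1 spot. The genes were chosen by earlier values of these data, above all their difference between heat-stressed and thermoneutral mice, so that difference is given here as a description with its error and without a test. The same holds for the difference of Hsd3b5 between mice whose names begin with F and with M, which probably entered the choice as well.

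Igfbp2 encodes a secreted protein that binds insulin-like growth factors in the circulation, and in liver its transcript is known to rise when food is short. Hsd11b1 encodes the enzyme of the endoplasmic reticulum that turns inactive 11-dehydrocorticosterone back into corticosterone, and so sets the glucocorticoid supply within hepatocytes. Hsd3b5 is a mouse liver member of the 3-beta-hydroxysteroid dehydrogenase family that reduces steroids and is known for its far higher level in males under the male pattern of growth hormone release. Nr5a2, also called LRH-1, is a nuclear receptor that binds DNA as a monomer and controls bile acid synthesis and cholesterol transport genes. Tef is a PAR bZIP transcription factor, a relative of Dbp and Hlf, that carries the circadian clock's output to genes of drug and heme metabolism.

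Liver RNA of 13 mice was hybridised on 34 spotted oligonucleotide arrays against universal mouse reference RNA, 1 to 4 arrays for each mouse. Of these, 7 mice were thermoneutral controls (TN, 20 arrays) that the labels place on an endophyte-free fescue diet, while 6 mice went through a heat stress of 2 weeks (HS, 14 arrays). Labels of 8 HS arrays give 34 °C, 7 give a start at 27 days of age and 5 give an end at 40 days. The strain ICR stands in the labels of some HS arrays only, and the sources used here do not give the diet of HS mice, the age and strain of TN mice, or any hybridisation batch. Where diet, age, strain, batch or the hour of liver collection differed, heat stress and that difference cannot be told apart. Of the TN mice, 3 had names with F and 4 with M, and of the HS mice 3 and 3. The labels call F222 female, M233 male and M242 female, so the letter was used as a letter and not as a sex. The oligonucleotides were designed on rat sequence, and the annotation gives these spots rat gene identifiers (25662 for Igfbp2, 25116 for Hsd11b1, 24470 for Hsd3b5, 60349 for Nr5a2 and 29362 for Tef). All 5 symbols are also mouse symbols. The mouse has 7 protein-coding Hsd3b genes, 6 of them on chromosome 3, and a rat oligonucleotide named Hsd3b5 may read several of them, so values for Hsd3b5 are uncertain as to the gene.

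Every value is a log2 ratio of liver over reference, with the median of each array at 0, so 0 is the ratio of the typical feature of the arrays and not an absence of expression. Single arrays were combined to 1 value for each mouse with the dye effect taken out. Among the 34 arrays, 2 stood apart by their spread over features: the median absolute deviation was 2.45 on the Cy5 array of TN mouse M244 and 1.90 on the Cy3 array of HS mouse F241, against 0.59 to 1.35 on the other arrays. The difference between HS and TN without these 2 arrays is given for each gene, as is the difference without HS mice F203, which had 1 array, and F241, a choice made after the values had been seen. Values from Cy5 arrays only lack F203 as well, whose single array has the liver RNA in Cy3. Of 17 measured hepatocyte markers, 15 lay above 0 and 14 were called higher than the typical feature (limma, adjusted p under 0.05), with a median of 2.58. Between HS and TN, 7 of the 17 had a positive difference, with a median of -0.12 and a range of -0.93 to 0.40. Of the other cell types, Clec4f and Slc11a1 of Kupffer cells differed by 0.36 (SE 0.28) and 0.36 (SE 0.27) between HS and TN and Lyz2 by 0.06 (SE 0.28), and their mean lay between -1.07 and 0.11 in TN mice and between -0.45 and 0.19 in HS mice. The blood marker Hba-a1 differed by 0.39 (SE 0.34), with mice at 0.15 to 1.79 in TN and at 0.47 to 2.67 in HS. Of stellate cell and matrix genes, Vim differed by -0.47 (SE 0.43), Sparc by -0.26 (SE 0.33) and Timp1 by 0.02 (SE 0.34). Krt8 of bile duct cells differed by 0.16 (SE 0.25) and the pancreas marker Prss1 by 0.26 (SE 0.26). The part of these cells in the values that follow was not tested, and in whole liver fewer cells of a type cannot be told apart from less RNA for each cell.

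Across all mice, Nr5a2 had the highest ratio of the 5 genes to the reference, followed by Hsd3b5, with Tef, Igfbp2 and Hsd11b1 behind. The ratio of Nr5a2 over both groups was 2.13 (SE 0.17, limma adjusted p = 1.56e-10), or 4.36-fold over the typical feature, and lay above 95.2% of all features. Hsd3b5 stood at 1.04 (SE 0.20, limma adjusted p = 9.67e-05), which is 2.06-fold. Tef and Igfbp2 were close to each other, at 0.58 (SE 0.13, limma adjusted p = 0.000693) and 0.54 (SE 0.13, limma adjusted p = 0.00148). Hsd11b1 was at 0.26 (SE 0.18, limma adjusted p = 0.288), and 8 of 13 mice were above 0. Thus 4 of the 5 genes were called higher and 0 lower, where 24.1% of all 1856 features were called higher and 24.4% lower. These are ratios to a reference, not levels, and the ratio of 1 gene does not rank its transcript against that of another.

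**Figure D1:**
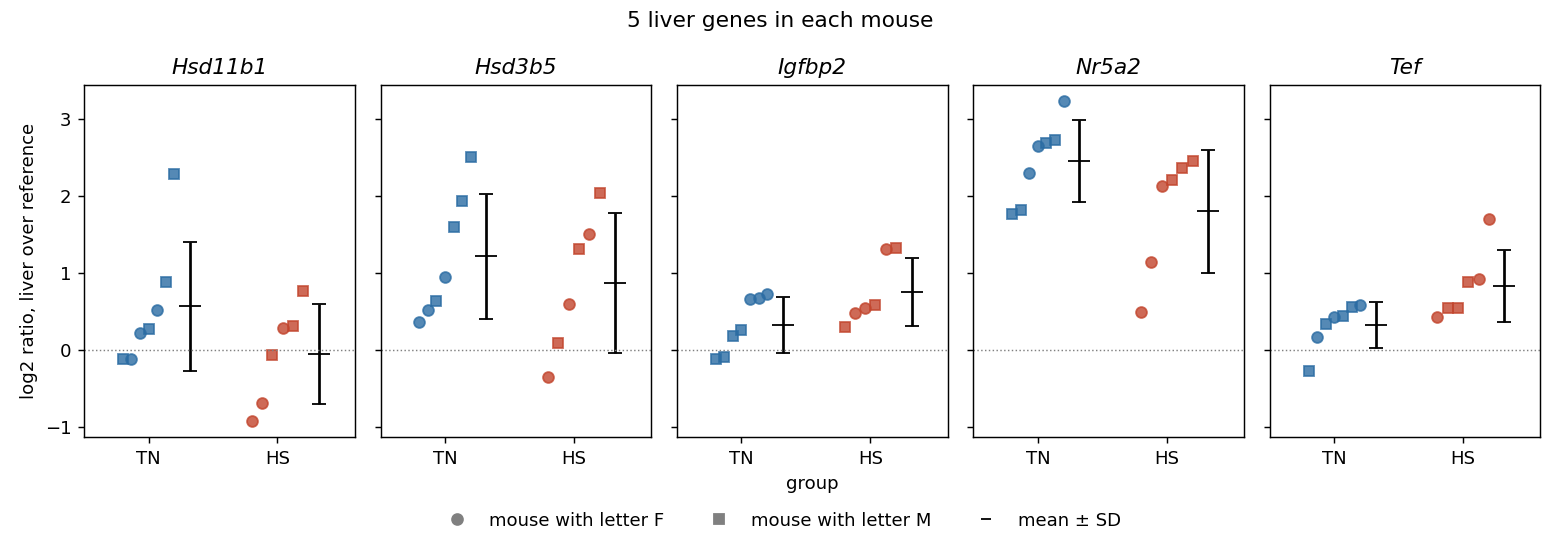
Log2 ratio of liver over reference for each of the 13 mice (vertical axis), in TN (blue) and HS (red), for each gene in its own panel, with circles for mouse names in F, squares for M, and the bars showing mean ± SD. TN and HS overlap in all 5 panels, and Nr5a2 lies above 0 in all 13 mice.

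The letters CACGTG, the E-box that CLOCK and BMAL1 are known to bind, stand in both upstream windows of Tef and in 1 of the 2 windows of Igfbp2. The windows that hold them are shown because Tef belongs to the clock's output. Their part in the differences between HS and TN was not tested. Each line gives the 250 bases before a RefSeq transcript start on mouse build GRCm38.p6, on the + strand, 5′ to 3′, with the E-box in capitals.
Tef, chr15:81802423-81802672: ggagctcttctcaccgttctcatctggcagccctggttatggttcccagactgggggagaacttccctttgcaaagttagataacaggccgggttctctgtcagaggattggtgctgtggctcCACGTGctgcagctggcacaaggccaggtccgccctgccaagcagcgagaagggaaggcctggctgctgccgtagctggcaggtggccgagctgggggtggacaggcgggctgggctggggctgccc
Tef, chr15:81811164-81811413: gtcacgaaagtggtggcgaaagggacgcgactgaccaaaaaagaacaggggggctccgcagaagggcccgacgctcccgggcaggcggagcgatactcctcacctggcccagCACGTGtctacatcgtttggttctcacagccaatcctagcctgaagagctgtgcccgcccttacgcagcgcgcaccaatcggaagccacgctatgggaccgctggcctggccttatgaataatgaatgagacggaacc
Igfbp2, chr1:72824230-72824479: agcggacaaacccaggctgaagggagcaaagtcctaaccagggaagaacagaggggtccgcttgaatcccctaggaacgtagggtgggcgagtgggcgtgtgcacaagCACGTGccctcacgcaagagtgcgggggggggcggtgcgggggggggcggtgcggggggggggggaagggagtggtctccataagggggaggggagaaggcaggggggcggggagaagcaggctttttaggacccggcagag
The first base of the E-box lies 127 and 138 bases before the Tef starts and 142 before the Igfbp2 start. Of the 8 windows that RefSeq gives for the 5 genes, these 3 hold CACGTG, which reads the same on both strands, and 6.02% of all 32851 windows of that length do. The NR5A site CAAGGTCA (1.33% of all windows) and the PAR bZIP sites TTATGTAA (0.819%) and TTACGTAA (0.113%), searched on both strands, were not in the 8 windows. The letters AGAACA of the glucocorticoid receptor's site, held by 16.1% of all windows, stood in 1 window of Igfbp2, both of Nr5a2 and 1 of Tef. A match is a description of letters and not a site, and the absence of a match says only that the letters are not in these windows.

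Across the whole array, 0 of 1856 features passed the test of HS against TN (0% called by limma, lowest adjusted p = 0.999), and 45 had an unadjusted p under 0.05, 21 of them higher in HS. None of the 5 genes was called either, and nothing is read from that count because the genes were picked on this difference. The lack of calls among the partner genes that follow is likewise read against that 0%.

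Igfbp2 was on average higher in heat-stressed liver. In TN mice it ran from -0.12 in M244 through a median of 0.26 to 0.72 in F235, and in HS mice from 0.31 in M233 through 0.57 to 1.32 in M242. The groups overlapped: 4 of 6 HS mice lay within the TN range, while M242 and F241 (1.30) lay above it. The means were 0.33 ± 0.36 (SD, n = 7) and 0.76 ± 0.44 (SD, n = 6), a difference of 0.43 (SE 0.27, 95% confidence interval -0.13 to 0.99), or 1.35-fold. It was 0.40 without the 2 arrays that stood apart, 0.18 on Cy5 arrays only and 0.77 on Cy3 arrays only. Its value in M242 rested on 3 arrays, at 0.595, 1.67 and 1.80, so the high value was shared by 2 of them.

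Of 22 genes on the growth factor list of ligands, receptors, carriers and signalling partners of Igfbp2, 6 were measured, 4 had a positive difference and 0 were called in either direction, with a median of 0.13 beside -0.01 over all features. Igf1, the growth factor that Igfbp2 binds, differed by 0.18 (SE 0.27), and Igfals, which holds it in the circulating complex, by 0.08 (SE 0.32). Igfbp3, the main carrier in blood, differed by 0.28 (SE 0.24), and Ghr, the growth hormone receptor, by 0.21 (SE 0.27). Socs2, a target and inhibitor of growth hormone signalling, was at -0.02 (SE 0.33) and Igf2r, which clears Igf2, at -0.33 (SE 0.39).

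Hsd11b1 was on average lower in heat-stressed liver, with 1 TN mouse far above the others. TN mice ran from -0.11 in M251 through a median of 0.27 to 2.29 in M244, and HS mice from -0.92 in F203 through 0.11 to 0.77 in M233. The groups overlapped, with 4 of 6 HS mice within the TN range and F203 and F241 (-0.68) beneath it. The means were 0.57 ± 0.84 (SD, n = 7) and -0.05 ± 0.64 (SD, n = 6), and the difference was -0.62 (SE 0.37, 95% confidence interval -1.38 to 0.14), 1.53-fold lower. Without M244 it was -0.35, without the 2 arrays that stood apart -0.23 and without mice F203 and F241 -0.24. Cy5 arrays alone gave -0.16 (SE 0.53) and Cy3 arrays alone -1.02 (SE 0.45), and the Cy5 value also lacks F203, the lowest HS mouse. M244 was high on both of its arrays, at 2.82 in Cy5 and 1.76 in Cy3, whereas the arrays of F241 lay at 0.65 in Cy5 and -2.01 in Cy3.

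Glucocorticoid genes gave no common direction beside it. Of 17 genes listed for the receptor, the enzyme's partners and its targets, 4 were measured, 2 differed upward, 2 downward and 0 were called in either direction, with a median of -0.00 against -0.01 over all features. Tat, a glucocorticoid-induced aminotransferase, differed by 0.14 (SE 0.36), and Tdo2, which opens tryptophan breakdown, by -0.14 (SE 0.28). Pck1, the gluconeogenic enzyme, differed by -0.40 (SE 0.38). The metal-binding Mt1, induced by glucocorticoids among other signals, stood at -1.93 ± 0.87 (SD, n = 7) in TN and -0.76 ± 0.62 (SD, n = 6) in HS, a difference of 1.17 (SE 0.37, limma adjusted p = 0.999).

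Hsd3b5 had the smallest mean difference between the groups of the 5 genes, and an SD between mice within groups of 0.86 that exceeded those of the others, although in TN alone that of Hsd11b1 was larger. TN mice ran from 0.365 in F223 through a median of 0.94 to 2.50 in M211, and HS mice from -0.345 in F241 through 0.96 to 2.04 in M233. The medians nearly coincided, and 4 of 6 HS mice lay within the TN range, with M256 (0.095) and F241 beneath it. The means were 1.21 ± 0.81 (SD, n = 7) and 0.87 ± 0.91 (SD, n = 6), and the difference was -0.35 (SE 0.40, 95% confidence interval -1.17 to 0.48). It was -0.27 without the 2 arrays that stood apart, -0.12 without F241, -0.15 without M211 and -0.20 without M256, and -0.61 without M233. It had no direction on Cy5 arrays only (0.01) or without mice F203 and F241 (0.03). The mice with 1 or 2 arrays were M244 and F223 in TN and F203, F241 and M256 in HS. Hsd3b5 was at most 0.635 in them and higher in all mice with more arrays except F235 (0.5244). The part of the number of arrays in the difference between HS and TN was not tested.

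Of 24 steroid enzymes listed beside Hsd3b5, 8 were measured and 0 were called in either direction. All 8 differences were negative, from -0.37 to -0.05, and the median was -0.15 against -0.01 over all features, of which 48.3% were positive. The list was made with earlier results of these data known, and the 8 genes share the same mice and arrays. Nothing is therefore read from the common direction. Ugt2b1, which glucuronidates steroids, differed by -0.37 (SE 0.31), Hsd17b6, a retinol and steroid dehydrogenase, by -0.33 (SE 0.33), and Akr1d1, the bile acid and steroid 5-beta-reductase, by -0.25 (SE 0.37). The smallest difference was that of the mitochondrial Hsd17b10, at -0.05 (SE 0.26).

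Nr5a2 was on average lower in heat-stressed liver, and its low values came from 2 mice with F in their names. TN mice ran from 1.77 in M251 through a median of 2.65 to 3.23 in F236, and HS mice from 0.50 in F203 through 2.16 to 2.46 in M256. Of the HS mice, 4 of 6 lay within the TN range, and F203 and F241 (1.15) lay beneath it. The means were 2.45 ± 0.53 (SD, n = 7) and 1.80 ± 0.79 (SD, n = 6), with a difference of -0.65 (SE 0.34, 95% confidence interval -1.35 to 0.04), 1.57-fold lower. Leaving out the 2 arrays that stood apart gave -0.58 and leaving out F203 alone gave -0.39. The difference was -0.17 without both F203 and F241, -0.36 on Cy5 arrays only and -0.70 on Cy3 arrays only. Both arrays of F241 were low, at 1.26 in Cy5 and 1.03 in Cy3, while the value of F203 came from 1 Cy3 array.

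Bile acid and cholesterol genes that Nr5a2 is known to act with differed in both directions. Of 30 listed, 20 were measured, 12 had a positive difference, 0 were called in either direction, and the median was 0.10 against -0.01 over all features. Cyp8b1, the sterol 12-alpha-hydroxylase and a classical Nr5a2 target, differed by 0.47 (SE 0.29), opposite in sign to Nr5a2. The nuclear receptors Nr0b2, which represses Nr5a2, and Nr1h4, the bile acid receptor, differed by 0.17 (SE 0.33) and -0.01 (SE 0.37). The canalicular pump Abcb11 differed by 0.21 (SE 0.41), the uptake carrier Slc10a1 by 0.24 (SE 0.31) and the scavenger receptor Scarb1 by 0.10 (SE 0.28). The extremes were Slc27a5, which activates bile acids, at 0.59 (SE 0.39), and the HDL protein Apoa1 at -0.93 (SE 0.41). Abcc2, the canalicular conjugate pump, differed by -0.52 (SE 0.33).

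Tef was on average higher in heat-stressed liver, and all 6 HS mice lay above the TN mean. TN mice ran from -0.27 in M244 through a median of 0.43 to 0.585 in F223, and HS mice from 0.43 in F222 through 0.71 to 1.70 in F241. The groups overlapped, with 3 of 6 HS mice within the TN range and M242 (0.88), F203 (0.92) and F241 above it. The means were 0.32 ± 0.30 (SD, n = 7) and 0.84 ± 0.47 (SD, n = 6), with a difference of 0.51 (SE 0.27, 95% confidence interval -0.04 to 1.06), or 1.43-fold. It was 0.34 without the 2 arrays that stood apart, 0.36 without F241, 0.28 without F203 and F241, 0.34 on Cy5 arrays only and 0.64 on Cy3 arrays only. F241 was the highest mouse and its arrays read 1.09 in Cy5 and 2.31 in Cy3.

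Few genes of the clock and its output could be set beside Tef, and the core clock genes on the list were not measured. Of 29 listed, 3 were measured, all 3 with a positive difference and 0 called, with a median of 0.21 against -0.01 over all features. The list was made with earlier results of these data known, so nothing is read from the common direction. Hlf, a PAR bZIP factor like Tef, differed by 0.33 (SE 0.26), Por, the electron donor of cytochromes P450, by 0.21 (SE 0.24), and Alas1, the first enzyme of heme synthesis, by 0.03 (SE 0.34). Of 71 nuclear receptors and liver transcription factors, Nr5a2 and Tef aside, 14 were measured, 8 had a positive difference and 0 were called, with a range of -0.19 to 0.33 and a median of 0.07. The difference of -0.65 for Nr5a2 and that of 0.51 for Tef lay outside this range. Both genes had been chosen on that difference, so nothing is read from this.

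**Figure D2:**
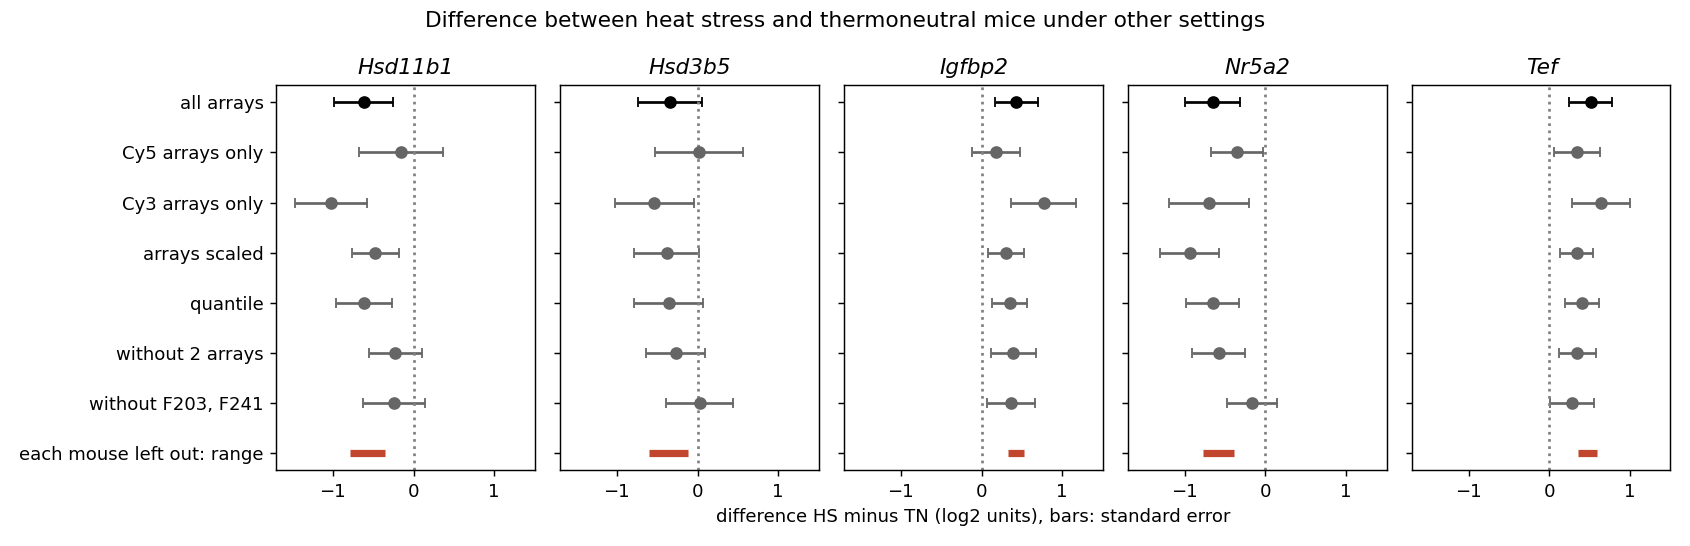
Difference of HS minus TN (horizontal axis, log2 units, bars for the standard error) for each gene with all arrays, with 1 dye only, with other scalings and without single arrays or mice, and as a red bar the range when each mouse is left out in turn. Hsd11b1, Igfbp2, Nr5a2 and Tef kept their sign in every setting drawn, while Hsd3b5 reached 0.01 on Cy5 arrays and 0.03 without F203 and F241.

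Arrays of the same mouse differed widely for these genes, with Tef the most repeatable and Hsd3b5 the least. After mouse and dye had been taken out, the SD of single arrays was 0.43 for Tef, 0.60 for Igfbp2, 0.85 for Nr5a2, 0.92 for Hsd11b1 and 1.02 for Hsd3b5, against a median of 0.64 over all features. Only 9.16% of features had a smaller array SD than Tef, while 92.3% had a smaller one than Hsd3b5. In the 12 mice with several arrays, the range within a mouse had a median of 1.06 for Hsd11b1 and reached 2.96 in F236. For Nr5a2 it reached 3.06 and for Hsd3b5 2.74, both in M242. The array spread alone gives a mouse value an SD of 0.28 for Tef, 0.40 for Igfbp2, 0.56 for Nr5a2, 0.61 for Hsd11b1 and 0.67 for Hsd3b5. The SD between mice of a group was 0.38, 0.40, 0.66, 0.76 and 0.86 in the same order, so for Igfbp2 it was no larger than the array spread. Nr5a2 read higher when the liver RNA was in Cy3 in 10 of 12 mice and Hsd11b1 in 9, whereas Tef did so in 1 and Igfbp2 in 3.

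**Figure D3:**
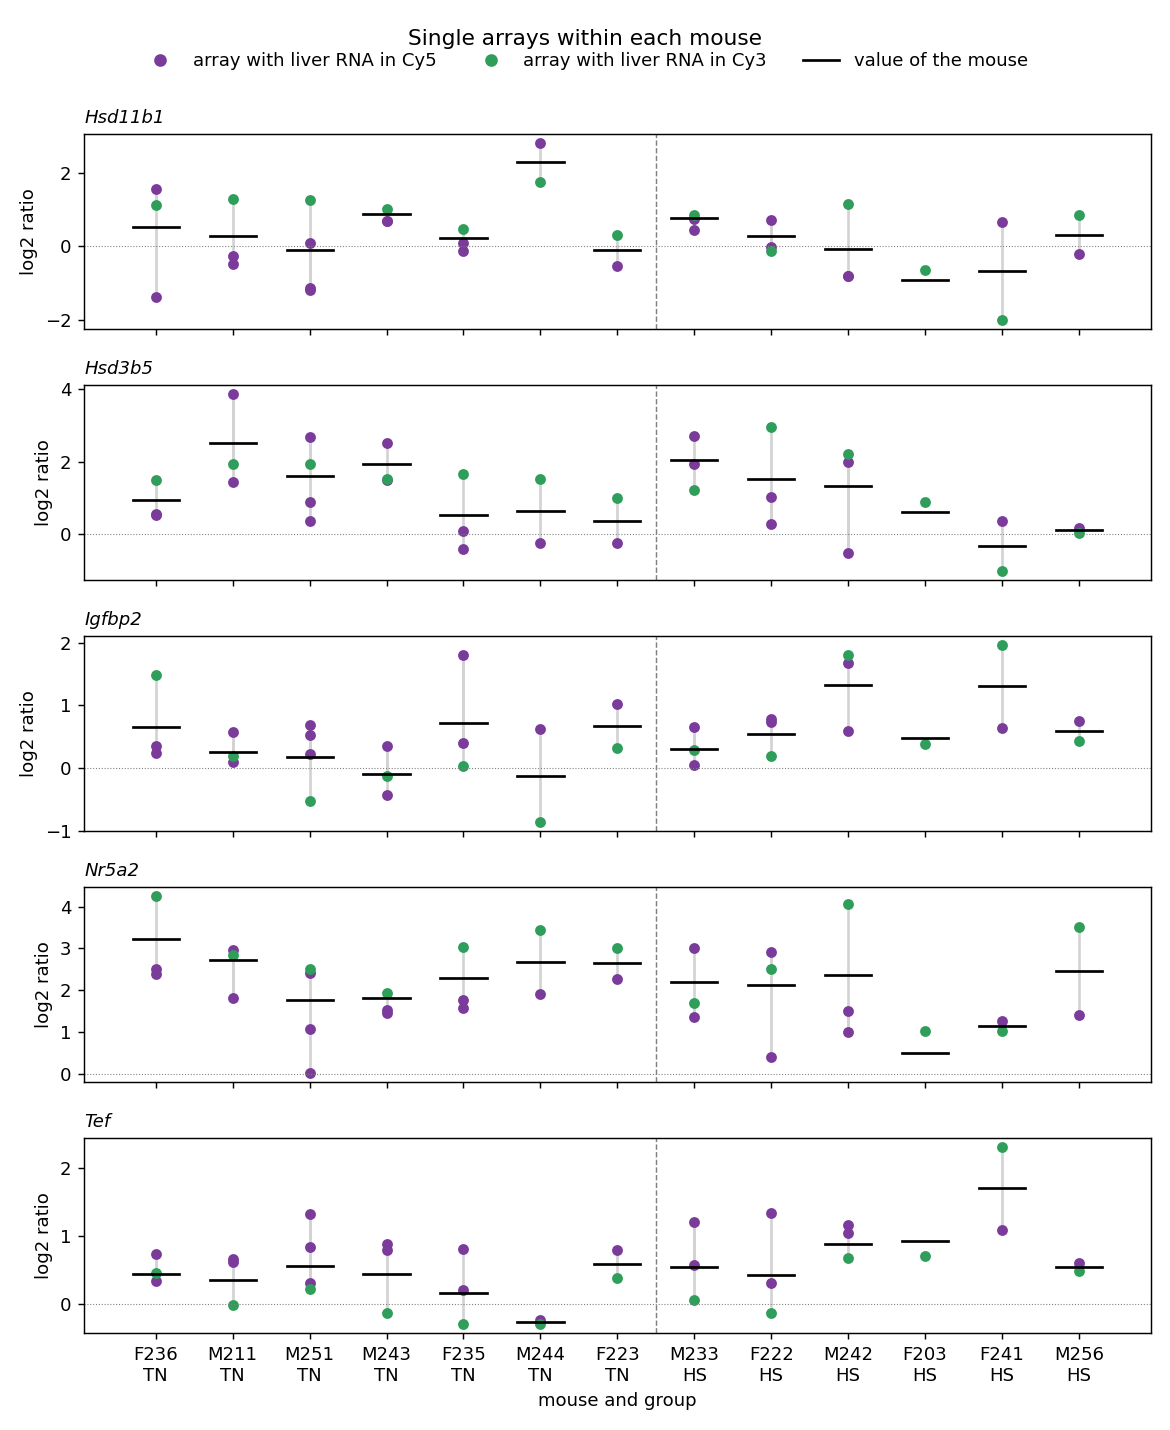
Log2 ratio of each single array (points, purple for liver RNA in Cy5 and green for Cy3) for each mouse, with the combined value of the mouse as a black line and TN mice left of the dashed line. Arrays of 1 mouse spread by up to 2.96 for Hsd11b1 and 3.06 for Nr5a2, and F203 has 1 array, whose line lies off its point because the dye effect was taken out.

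Between mice named with F and with M, all of the genes overlapped over both groups together. In this comparison, which had the group as a further term, 0 of the 4 genes other than Hsd3b5 and 0.0539% of features were called (limma, 1 feature). Hsd3b5, known for its high level in males, averaged 0.60 ± 0.62 (SD, n = 6) in F mice and 1.45 ± 0.84 (SD, n = 7) in M mice, a difference of -0.83 (SE 0.37), and 5 of 6 F mice lay beneath the M mean. It was -1.05 on Cy5 arrays only and -0.29 on Cy3 arrays only. Hsd11b1 averaged -0.11 ± 0.58 (SD, n = 6) in F mice and 0.62 ± 0.83 (SD, n = 7) in M mice, a difference of -0.70 (SE 0.34, limma adjusted p = 0.995), with all 6 F mice beneath the M mean. Without the 2 arrays that stood apart it was -0.33, on Cy5 arrays only -0.18 and on Cy3 arrays only -1.25. Nr5a2 differed by -0.25 (SE 0.34) and Tef by 0.24 (SE 0.27), both with a limma adjusted p of 0.995, and both moved with single mice. Nr5a2 was at -0.0067 without F203 and at 0.17 on Cy5 arrays only, and Tef at 0.10 without F241 and at 0.02 without F203 and F241.

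Within thermoneutral mice the Igfbp2 values of the letters did not overlap, while those of Hsd11b1, Hsd3b5, Nr5a2 and Tef did. The 3 TN mice with F lay between 0.67 and 0.72 and the 4 with M between -0.12 and 0.26, without overlap, as was the case for 3.39% of all features in this split of 3 against 4 mice. No test was run within TN mice alone. In HS mice the letters overlapped, at 0.48 to 1.30 for F and 0.31 to 1.32 for M. Over both groups F minus M was 0.36 (SE 0.27, limma adjusted p = 0.995), and all 6 F mice lay above the M mean. Leaving out M242, which carries an M but is labelled female, gave 0.52 (limma adjusted p = 0.882). Among its partners, Igf1 differed by 0.55 (SE 0.25) between F and M and Socs2 by 0.71 (SE 0.31), with no call among the 6.

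By the means, Nr5a2 differed between HS and TN in F mice and not in M mice, but the test of that contrast did not hold after adjustment. Of the HS mice with F, F203 (0.50) and F241 (1.15) were low and F222 stood at 2.13. In F mice Nr5a2 averaged 2.73 ± 0.47 (SD, n = 3) in TN and 1.26 ± 0.82 (SD, n = 3) in HS, a difference of -1.47. These values did not overlap, and neither did those of 6.79% of all features in this split of 3 against 3 mice. Nr5a2 had been chosen on its difference between HS and TN in these same mice, F203 and F241 among them. Nothing is therefore read from the lack of overlap beside that share, and the interaction that follows draws on the same values. In M mice Nr5a2 averaged 2.25 ± 0.53 (SD, n = 4) in TN and 2.34 ± 0.13 (SD, n = 3) in HS, a difference of 0.09. Among these HS mice, M242 (2.36) is labelled female. The interaction was -1.56 (SE 0.63, 95% confidence interval -2.86 to -0.26, limma adjusted p = 0.998). It was -0.54 on Cy5 arrays only and -0.68 without mice F203 and F241, which leaves F222 as the only HS mouse with F. Igfbp2 had the opposite layout, with a difference of 0.09 in F mice and 0.68 in M mice, and an interaction of -0.59 (SE 0.55, limma adjusted p = 0.998), which was -0.29 without M242. Tef differed by 0.62 in F mice and 0.39 in M mice, and Hsd11b1 by -0.65 and -0.49. By the interaction test 0 of the 5 genes and 0% of features were called, the lowest adjusted p over all features was 0.253, and 22 features had an unadjusted p under 0.05.

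**Figure D4:**
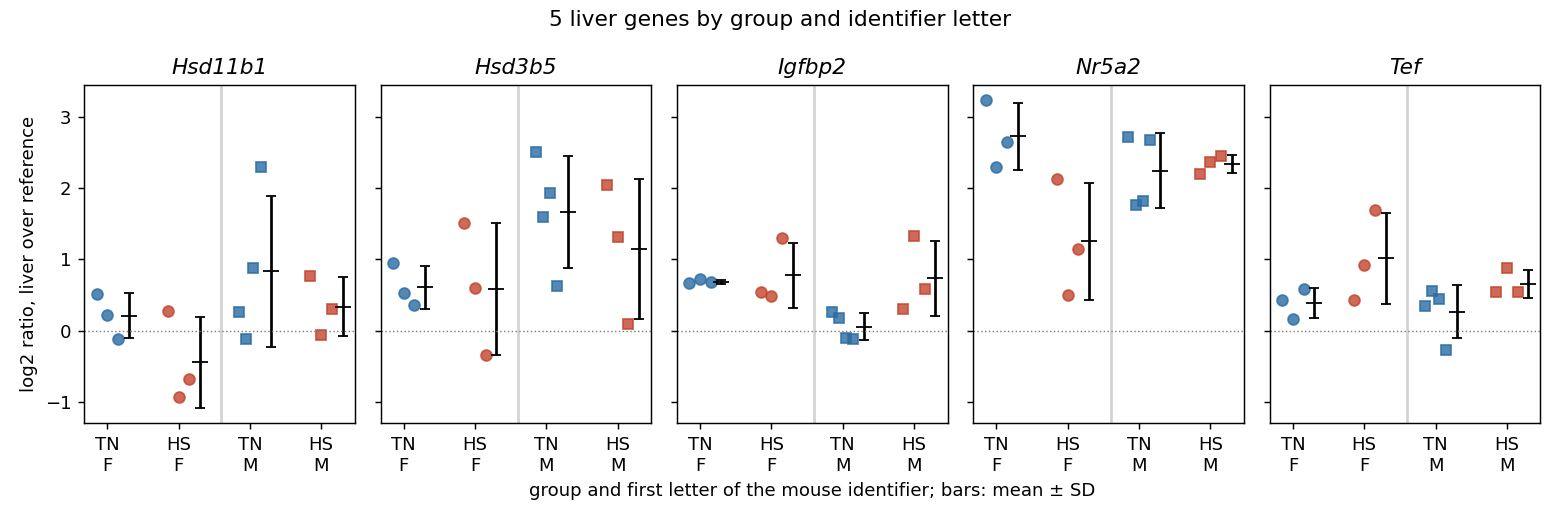
Log2 ratio of liver over reference in each mouse (vertical axis), split by group and by the letter that opens the name of the mouse, with bars for mean ± SD. Igfbp2 lies at 0.67 to 0.72 in the 3 TN mice with F and at -0.12 to 0.26 in the 4 with M. The lowest Nr5a2 values are those of F203 and F241, HS mice with F.

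Among themselves, the closest relation was that of Hsd11b1 against Tef. With the group means taken out, the correlation over 13 mice was -0.75 (Spearman -0.75), and -0.63 over the 11 mice other than M244 and F241. Hsd11b1 and Nr5a2 ran together at 0.49 (Spearman 0.65), and at 0.55 without those mice. Hsd11b1 against Igfbp2 was at -0.54 (Spearman -0.49), and at -0.29 without them. Nr5a2 against Tef was at -0.46 (-0.40 without them), and Hsd3b5 against Igfbp2 at -0.46 (-0.47 without them). Apart from Igfbp2 with Tef, the remaining pairs lay between -0.29 and 0.18. Igfbp2 and Tef ran together at 0.59 (Spearman 0.51), and at 0.19 without M244 and F241, so that relation rested on those mice. These are descriptions over mice that share arrays, dye and normalization with every gene compared, and each of the mice carries the array spread given above.

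Hsd3b5 had the closest companions of the 5 genes, and they were genes of the ribosome. The 3 named genes most like it over the 13 mice were Rpl36 (r = 0.95, Spearman 0.98), Rpl5 (0.92) and Rpl8 (0.92), all subunits of the large ribosomal particle, and without M244 and F241 the r of Rpl36 was 0.95. Of 51 ribosomal protein genes, a list made after these values had been seen, 29 had an r above 0.7 with Hsd3b5 and 4 an r less than 0, with a median of 0.71 and a range of -0.46 to 0.95. Over the 967 other named genes the median was 0.11 and 47 exceeded 0.7. The median r of the same 51 genes was -0.03 with Hsd11b1, -0.09 with Igfbp2, 0.17 with Nr5a2 and -0.04 with Tef. The gene least like Hsd3b5 was Selenop, a secreted selenium carrier, at -0.78. Rpl36 and Hsd3b5 also followed the number of arrays, which was 1 or 2 for M244, F223, F203, F241 and M256. Before group means were taken out, Rpl36 was at most -1.8453 in these mice and at least -1.7049 in those with 3 or 4 arrays. Hsd3b5 was at most 0.635 in the former and higher in the latter, except in F235 (0.5244). The part of the number of arrays in the likeness to ribosomal genes was not tested.

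Nr5a2 was most like Abcc2, at r = 0.86 over the 13 mice and 0.87 without M244 and F241, followed by Vamp8 (0.75) and Apoa1 (0.72), and least like Gphn (-0.75). By Spearman the likeness was 0.73 for Abcc2, 0.69 for Vamp8 and 0.53 for Apoa1. HS mouse F203, with 1 array, was the lowest of its group for Nr5a2, Vamp8 and Apoa1, at deviations of -1.30, -2.93 and -2.20. It remains among the mice without M244 and F241, and its part in these correlations was not tested. Abcc2 and Apoa1 were also on the partner list of Nr5a2. Only 0.295% of the 1018 other named genes exceeded an r of 0.7 with Nr5a2, against 7.47% with Hsd3b5 and 8.06% with Tef. Tef was most like Cd164 (0.92), Cavin3 (0.91) and Serpina3n (0.88), whose r was 0.78, 0.65 and 0.65 without M244 and F241. Igfbp2 was most like Cth (0.89), the enzyme that makes cysteine from cystathionine, Bud31 (0.88) and Pccb (0.87), and least like Grm4 (-0.76). Hsd11b1 was most like Zfp354a (0.79), Cyp4a1 (0.75) and Akr1c3 (0.75), of which the first 2 were at 0.45 and 0.41 without M244 and F241, and least like Cyp2c13 (-0.91).

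**Figure D5:**
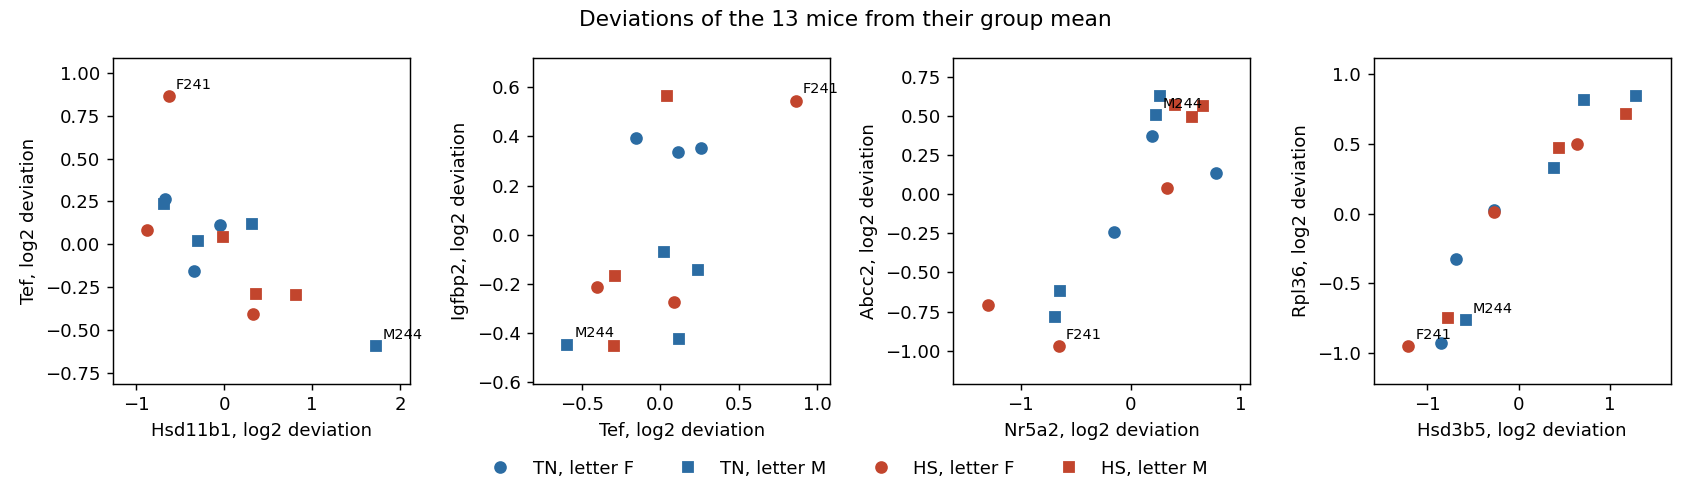
Deviation of each of the 13 mice from its group mean (log2 units) for 4 pairs of genes, blue for TN and red for HS, circles for F and squares for M, with M244 and F241 named. Hsd3b5 against Rpl36 lies close to 1 line (r = 0.95), and Hsd11b1 against Tef slopes downward (r = -0.75).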

How the data were processed

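The members and the gene lists were chosen with earlier results of these data known. The deposited values, taken here as log2, are log ratios of the 2 channels made by the authors. The sources used here state neither the background correction, the normalization and the spot filter nor the base of the logarithm. Without intensities, dim spots were not filtered and signal over background is unknown. Per the labels, RNA was extracted with RNAqueous and labelled by the indirect amino-allyl method. The values ran as Cy5 over Cy3 on all arrays, per the dye labels, and were neither turned for swapped dyes nor centred (column medians -0.88 to 1.17). Columns of other samples not used numbered 0.

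Here each array was centred on its median, spots of a gene were averaged, and each feature was fitted on 13 mouse terms and 1 dye term. The resulting mouse values entered limma 3.58.1 (R 4.3.3; lmFit and eBayes, two-sided, Benjamini-Hochberg over all 1856 features, called at an adjusted p under 0.05), with features in at least 4 mice of each group. The fit was tested on simulated data. The groups' p-values measure the spread between mice. Precision is limited by 13 mice and 34 arrays. Alternatives were other scalings, single dyes, means without a dye term, a random mouse block, and mice or arrays left out. Others were mice weighted by their number of arrays, array quality weights, the letter as a further term, complete features only and robust eBayes.

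Named genes were the 5 genes in full, their listed partners where measured, and for each the 3 genes of highest and the 1 of lowest Pearson correlation over mice with group means taken out. Cell type markers were added. Symbols were matched and promoter sequences taken from RefSeq, GRCm38.p6.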

Additional observations from a re-analysis of the deposited data

Results flagged for a closer look

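Hsd11b1 in the thermoneutral mouse M244 was 2.29 on the log2 scale, and the other 6 TN mice lay between -0.11 and 0.88. Its gap to the nearest of them took 0.585 of the whole range of the group, past the critical value of Dixon's test for 7 samples (0.568). Both arrays of M244 read high for Hsd11b1, at 2.82 in Cy5 and 1.76 in Cy3. Over all features the values of M244 had a median absolute deviation of 1.75 and a correlation of 0.67 with the mean of the other mice, against 0.54 to 1.07 and 0.83 to 0.95 in the other mice. The part of that wide spread in its Hsd11b1 value was not tested. A test at this level marks some groups by chance.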

How the results depend on the processing

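Over 27 alternatives the difference between HS and TN kept its direction for Hsd11b1 (-1.02 to -0.16), Igfbp2 (0.18 to 0.77), Nr5a2 (-0.94 to -0.17) and Tef (0.28 to 0.64), and 0 features were called in each. That of Hsd3b5 was 0.0148 on Cy5 arrays only and 0.0251 without F203 and F241. With mice weighted by their number of arrays, the difference was -0.39 for Hsd11b1, -0.41 for Nr5a2, -0.26 for Hsd3b5, 0.45 for Igfbp2 and 0.43 for Tef. With the mouse as a random block, it was -0.45, -0.47, -0.27, 0.45 and 0.46 in the same order. The genes were chosen on this difference in these same mice, so a kept direction is a description and no support. Asking for a value in all 13 mice and the robust form of eBayes could not move the estimates. Features called between F and M numbered 0 on Cy5 arrays only and 1 to 2 when each mouse was left out (2 without F222). For the interaction 1 feature was called with arrays scaled, and 0 to 1 when each mouse was left out (1 without M244 or without F222). The interaction changed sign for Hsd11b1, at 1.40 on Cy5 arrays only, 0.12 without the 2 arrays that stood apart, 0.58 without F203 and F241, and -0.66 to 0.19 over single mice left out. It did so for Tef at -0.0044 on Cy5 arrays only, -0.36 without F203 and F241 and -0.0774 (without F241) to 0.51 over single mice left out, and for Hsd3b5 at -0.0494 (without M256) to 0.92 over these. Nr5a2 between F and M was 0.17 on Cy5 arrays only and 0.27 without F203 and F241. The cause was not tested. Leaving out F203 and F241 leaves F222 as the only HS mouse with F. Against the reference, Igfbp2 (0.46, limma adjusted p = 0.071) and Tef (0.36, limma adjusted p = 0.104) were no longer called on Cy3 arrays only, and Hsd11b1 (0.48, limma adjusted p = 0.0466) was called without F203 and F241. Of the 15 most-like genes, 9 stayed with group means left in, 4 by Spearman and 5 without M244 and F241. Without centring, the median F minus M over features went from 0.03 to -0.12. Each gene has 1 spot, so an analysis by spot gave no further value. No paired analysis was possible because the mice of the groups share no number.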
